A study of Mus musculus with 2 samples.

Results

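The hypoxia and glycolysis genes are 33 genes of glucose uptake and breakdown and of the response to low oxygen. They were listed by name and not by a cut on a measured value, but with earlier results of these data known. All 33 were found among the 31017 gene symbols of the series, and each had at least 1 UMI among the kept cells of both libraries. A UMI, or unique molecular identifier, marks 1 captured transcript, so UMI counts stand for molecules. Levels are given as CPM, a gene's UMIs in a class of cells divided by all UMIs of that class and scaled to counts per 1000000. The 33 genes together held 991488 UMIs, or 0.891% of all UMIs, in the library titled Control, and 1153787 UMIs, or 1.05%, in the library titled Blood.

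The cells came from fibrosarcomas, connective tissue tumours that grew under the skin of wild-type C57BL/6 mice from implanted syngeneic cells, and were profiled by droplet single-cell RNA sequencing. The study injected autologous erythrocytes, that is red cells of the same animals, in saline, with saline as control, and made 1 library for each. The treatment labels contradict the titles: Erythrocyte injected stands with the title Control, and PBS injected with the title Blood. Libraries are therefore called by title, and none of the differences below can be assigned to erythrocytes or to saline. Both libraries share the genotype WT C57BL/6, and both tumours were minced, digested with enzymes and freed of erythrocytes by lysis. The sources used here do not give the age or number of animals, the implanted line or any sort of the cells. With 1 library per group no test between groups could be run and the differences lack a replicate check. The 95% intervals given are exact and cover counting error only.

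After filters, 8823 cells in the library titled Control and 11341 in the library titled Blood were kept, with medians of 9245 and 6577 UMIs per cell, and 349 barcode sequences occurred in both libraries. Cells were clustered without the 33 genes and without 62 other genes of the same pathways, and clusters were named from marker genes. The neutrophil-like class held 129 and 1773 cells, the macrophage-like class 5708 and 6129, and the T cell-like class 1172 and 1504. Neutrophil-like cells were shallow, with medians of 1962 and 1747 UMIs per cell against 13114 and 11850 in macrophage-like cells. All 10 neutrophil markers were detected in the neutrophil-like class of both libraries, at summed levels of 66523 and 55296 CPM. Of the 8 mast cell markers, 8 were at 0 in the neutrophil-like class of the library titled Control and 5 in that of the library titled Blood. The complement genes C1qa, C1qb and C1qc, which define macrophages, stood in neutrophil-like cells at 3.59% and 4.17% of their macrophage-like level.

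Glycolysis splits glucose into pyruvate in the cytosol, and cells short of oxygen draw on it for ATP and pass the pyruvate on as lactate. When oxygen falls, prolyl hydroxylases stop marking the protein HIF-1 alpha for destruction, and it pairs with ARNT and switches on genes of glucose import, glycolysis, mitophagy and its own hydroxylases. Control of HIF-1 alpha acts mainly on the protein, so the level of its transcript is not a measure of its activity. Neutrophils have few mitochondria and rely on glycolysis, and hypoxic regions are common in solid tumours.

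HIF binds DNA at a short core, spelled ACGTG or GCGTG, so the 250 bases before the start of each member were read from the RefSeq promoter table of build GRCm38.p6. A promoter was found for 30 of 33 members, giving 42 windows. Slc2a3, Bnip3l and Ndrg1 had no entry in that table. The 3 members with the highest ratios between libraries in neutrophil-like cells among those with UMIs in both and a promoter entry are shown, followed by Hif1a, whose ratio was near 1, and Mif, which has no match. Capitals mark each ACGTG or GCGTG on either strand, so CACGT and CACGC are the same letters read from the other strand, and each window is written 5′ to 3′ along the gene and ends at the base before the start.
Bnip3, chr7:138909507-138909756, minus strand: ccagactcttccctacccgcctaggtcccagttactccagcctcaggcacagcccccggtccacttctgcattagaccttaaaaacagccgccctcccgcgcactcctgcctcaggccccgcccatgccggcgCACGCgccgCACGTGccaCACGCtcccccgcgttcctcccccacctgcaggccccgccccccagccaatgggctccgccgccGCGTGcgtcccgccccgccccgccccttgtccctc
Ankrd37, chr8:45999851-46000100, minus strand: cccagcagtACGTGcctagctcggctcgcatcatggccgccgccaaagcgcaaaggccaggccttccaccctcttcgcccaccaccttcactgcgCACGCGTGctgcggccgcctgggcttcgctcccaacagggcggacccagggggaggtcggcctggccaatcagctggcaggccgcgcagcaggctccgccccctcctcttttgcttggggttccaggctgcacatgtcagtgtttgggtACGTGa
Ero1l, named Ero1a in RefSeq, chr14:45318573-45318822, minus strand: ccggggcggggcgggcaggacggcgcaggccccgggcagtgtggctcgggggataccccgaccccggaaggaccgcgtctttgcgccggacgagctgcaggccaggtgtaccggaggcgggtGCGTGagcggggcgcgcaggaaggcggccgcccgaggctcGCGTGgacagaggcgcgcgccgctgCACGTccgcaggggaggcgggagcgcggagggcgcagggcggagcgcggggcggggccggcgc
Hif1a, chr12:73907617-73907866, plus strand: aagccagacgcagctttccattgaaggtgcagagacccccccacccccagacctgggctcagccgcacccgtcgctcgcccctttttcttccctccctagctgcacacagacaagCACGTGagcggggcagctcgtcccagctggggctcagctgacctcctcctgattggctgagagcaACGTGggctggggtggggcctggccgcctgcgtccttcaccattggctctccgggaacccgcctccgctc
Mif, chr10:75860278-75860527, minus strand: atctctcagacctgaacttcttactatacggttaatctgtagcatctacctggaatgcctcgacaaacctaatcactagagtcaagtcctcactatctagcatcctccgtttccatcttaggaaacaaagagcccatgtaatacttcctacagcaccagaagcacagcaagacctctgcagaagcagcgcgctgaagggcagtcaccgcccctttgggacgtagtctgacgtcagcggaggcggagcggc
Bnip3 and Hif1a each hold the palindrome CACGTG, in which the ACGTG core is read from both strands. In Bnip3 it lies 107 bases before the start for the gene's own strand, between a pair of GCGTG matches at 117 and 99 bases on the other strand. Across all members, 21 of 42 windows (50%) held ACGTG and 32 of 42 (76.2%) held either core. Over all 32851 windows of the same length in the table the shares were 16.6% and 38.6%, and GCGTG alone was found in 28.2%. CACGTG was found in 4 of the members' windows and in 6.02% of all windows. A match describes letters only, base composition was not matched between the sets, and no match says nothing about binding elsewhere.

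In neutrophil-like cells, most of the 33 genes stood higher in the library titled Blood. Together they took 1.19% of the class's UMIs in the library titled Control (95% interval 1.15 to 1.23) and 2.49% in the library titled Blood (2.48 to 2.51). Of 31 members that passed the filter of at least 10 CPM in either library and 10 counts in both together, 25 were at least 1.5-fold higher in the library titled Blood, against 20.6% of the 6511 genes that passed in these cells, and 0 were at least 1.5-fold lower, against 14.3%. This fold and every log2 ratio below were taken after adding 5 CPM to both levels, which draws low genes towards 0. The median log2 ratio was 1.32 over these 31 members and 0.05 over all genes. The interval of the ratio lay wholly above 1 for 26 of the 31, against 8.42% of all genes, wholly above 1.5 for 22, against 1.77%, and wholly below 1 for 0, against 9.29%. A member that passed only through the library where it is high had to differ, and this applies to Adm alone, since 30 members reached 10 CPM in the library titled Control and 24 of them were at least 1.5-fold higher.

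Of all members with UMIs in both libraries that passed, Bnip3 had the highest ratio. Bnip3, a receptor on mitochondria marked for removal, stood at 169 CPM in the library titled Control and 743 CPM in that titled Blood, a 4.39-fold difference (95% interval 3.26 to 6.05). Its relative Bnip3l stood at 254 and 719 CPM, 2.83-fold higher (2.22 to 3.67). Both intervals lie above 1.

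Among genes of oxygen sensing, the hydroxylases and their fellow targets were higher and Hif1a was not. Ankrd37, an ankyrin repeat gene long known as a HIF target, stood at 46.2 and 187 CPM, from 12 and 599 UMIs, a 4.04-fold difference (2.30 to 7.87). The prolyl hydroxylases Egln1 and Egln3, which mark HIF alpha subunits in the presence of oxygen, stood at 42.3 and 132 CPM and at 200 and 475 CPM. Kdm3a, a histone H3 lysine demethylase, stood at 73.1 and 190 CPM. Hif1a itself stood at 312 and 291 CPM, a ratio of 0.932 whose interval of 0.742 to 1.18 includes 1.

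Of the genes of protein folding, collagen hydroxylation, lipid droplets and stress, 4 of 5 passed the filter and all 4 were higher in the library titled Blood. Ero1l, the oxidase that forms disulphide bonds in the endoplasmic reticulum, stood at 350 and 1197 CPM, 3.42-fold higher (2.78 to 4.25). Hilpda, a lipid droplet protein that inhibits triglyceride breakdown, stood at 1147 and 3127 CPM, 2.73-fold higher (2.43 to 3.07), and was the member with the most UMIs in the library titled Blood. Ndrg1, a stress-responsive gene, stood at 53.9 and 182 CPM, and P4ha1, the catalytic subunit of collagen prolyl hydroxylase, at 142 and 381 CPM. The related P4ha2 had 0 and 3 UMIs and did not pass.

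Among secreted and extracellular products, Mif, the macrophage migration inhibitory factor, stood at 608 and 2031 CPM, 3.34-fold higher (2.85 to 3.93). Adm, which encodes the vasodilator adrenomedullin, had 0 UMIs in the library titled Control, where 3 counts would be 11.5 CPM. It stood at 14 CPM in the library titled Blood, 1.21 times that bound. The interval of its level there, 10.2 to 18.8 CPM, reached below the bound, so a difference beyond counting error was not shown. Setting Adm to the bound of 3 counts left the median over the members at 1.32. Car9, a cell surface carbonic anhydrase and a widely used hypoxia marker, had 1 and 3 UMIs and did not pass.

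The glucose importers and the enzymes of the first steps differed to unequal degrees. The transporters Slc2a1 and Slc2a3 stood at 397 and 477 CPM and at 254 and 368 CPM. The interval of the ratio of Slc2a1, 0.984 to 1.48, included 1, and that of Slc2a3, 1.13 to 1.89, did not. The hexokinase Hk2 stood at 196 and 570 CPM, 2.91-fold higher (2.2 to 3.92), while Hk1, the hexokinase found in most cells, stood at 131 and 138 CPM with an interval of 0.745 to 1.55. Gpi1, which turns glucose 6-phosphate into fructose 6-phosphate, stood at 285 and 799 CPM. The phosphofructokinases Pfkl and Pfkp, which commit sugar to glycolysis, stood at 73.1 and 212 CPM and at 231 and 595 CPM. Pfkfb3, which makes the activator of these enzymes, stood at 73.1 and 180 CPM.

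All 7 members of lower glycolysis had ratio intervals above 1, and 6 of them were at least 1.5-fold higher. Tpi1, which interconverts the triose phosphates, differed the most of them, at 350 and 934 CPM. Gapdh stood at 1263 and 2392 CPM and Pgk1, the next enzyme, at 439 and 873 CPM. Pgam1, the mutase after it, stood at 489 and 945 CPM, and the aldolase Aldoa at 882 and 1612 CPM. Eno1, the enolase, stood at 420 and 689 CPM. Pkm, the pyruvate kinase, was the member under 1.5-fold, at 1428 and 2028 CPM. Gapdh, Eno1 and Ldha have near-identical copies in the mouse genome, and their single values are uncertain where the counting could drop shared reads.

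Of the genes that decide the fate of pyruvate, Ldha and Pdk1 were higher in the library titled Blood, and Slc16a3 did not differ beyond counting error. Ldha, which reduces pyruvate to lactate, stood at 628 and 1578 CPM, 2.51-fold higher (2.15 to 2.96). Pdk1, a kinase of pyruvate dehydrogenase, stood at 42.3 and 84.5 CPM, 1.99-fold higher (1.10 to 4.04). Slc16a3, the exporter that carries lactate out of the cell, stood at 905 and 798 CPM, a ratio of 0.882 whose interval of 0.771 to 1.01 includes 1.

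**Figure D1:**
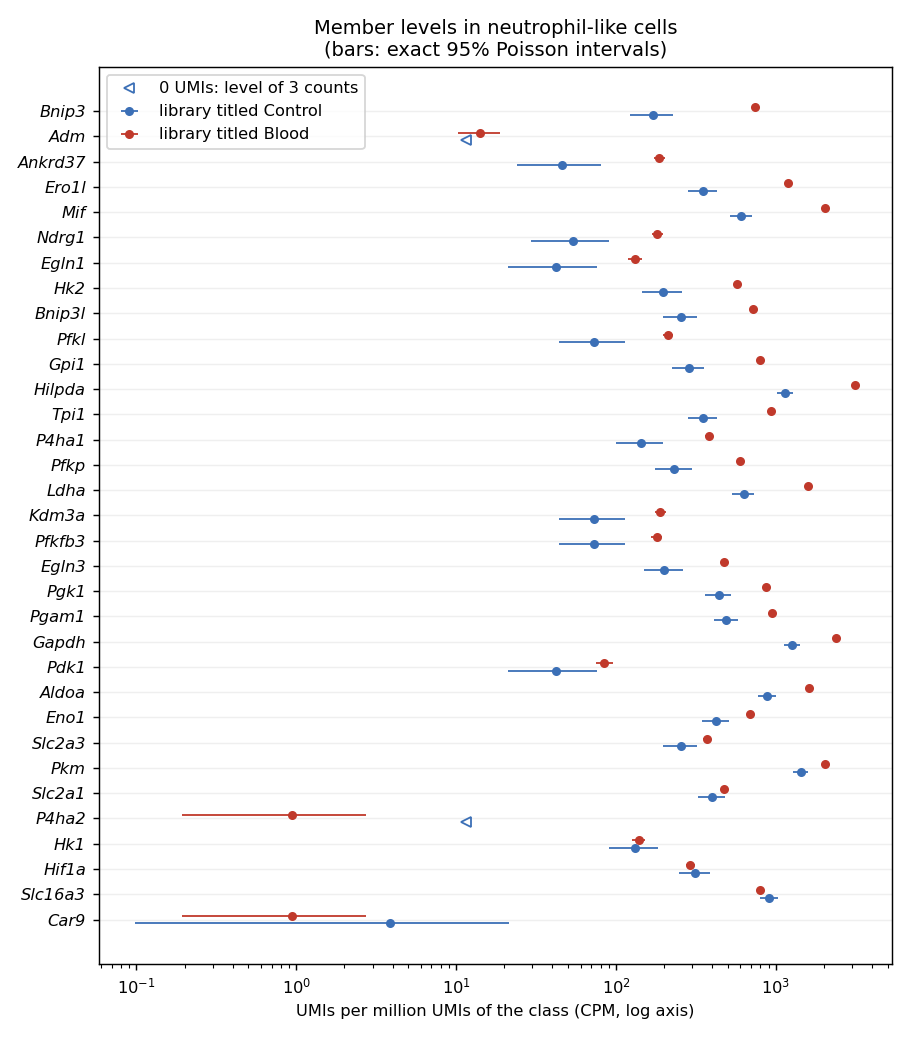
Levels of the 33 members in neutrophil-like cells in CPM on a log axis, in the library titled Control (blue) and the library titled Blood (red), with exact 95% Poisson intervals as bars and open triangles at the level of 3 counts where no UMI was found. The genes are ordered by log2 ratio, from Bnip3 (169 and 743 CPM) at the top to Slc16a3 and Car9 at the bottom, and Slc2a1, Hk1, Hif1a and Slc16a3 are members whose points lie close together.

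The neutrophil-like class was not made of the same kinds of cell in both libraries. Clustered again without the pathway genes, it fell into 6 subclusters, called N0 to N5. In the library titled Control, N1, led by the interferon-inducible genes Cxcl10, Gbp5 and Gbp2, held 73 of 129 cells, with 21 in N0, 21 in N4, 10 in N2, 4 in N3 and 0 in N5. In the library titled Blood, N0 held 610 of 1773 cells, N2 368, N3 362, N1 361, N4 46 and N5 26. The library titled Blood gave 610 of 631 cells of N0, 368 of 378 of N2 and 362 of 366 of N3. It also gave 1773 of the 1902 cells of the whole class, so these counts largely follow the unequal cell numbers. With 1 library per group, a cluster may be the library and not a type of cell. N5 had Arg1 and Ccr2, genes of macrophages and monocytes, among its leading genes. N0 had the heat shock genes Hspa1a and Hspa1b among its leading genes.

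The share of UMIs in the 33 members differed more between subclusters than between libraries. In N0 it was 2.31% in the library titled Control and 3.70% in the library titled Blood. It was 0.95% and 1.33% in N1, 1.51% and 2.14% in N2 and 1.96% and 2.58% in N3. N4, led by genes such as Retnlg that neutrophils of the blood express, had the lowest shares, 0.580% and 0.614%. The list of blood-type neutrophil genes stood in N4 at 12584 and 10540 CPM, against 1471 and 1812 CPM in N0. In 5 of 5 subclusters with cells in both libraries the share was higher in the library titled Blood, and in N4 the intervals of the shares, 0.510 to 0.656 and 0.563 to 0.667, overlapped.

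**Figure D2:**
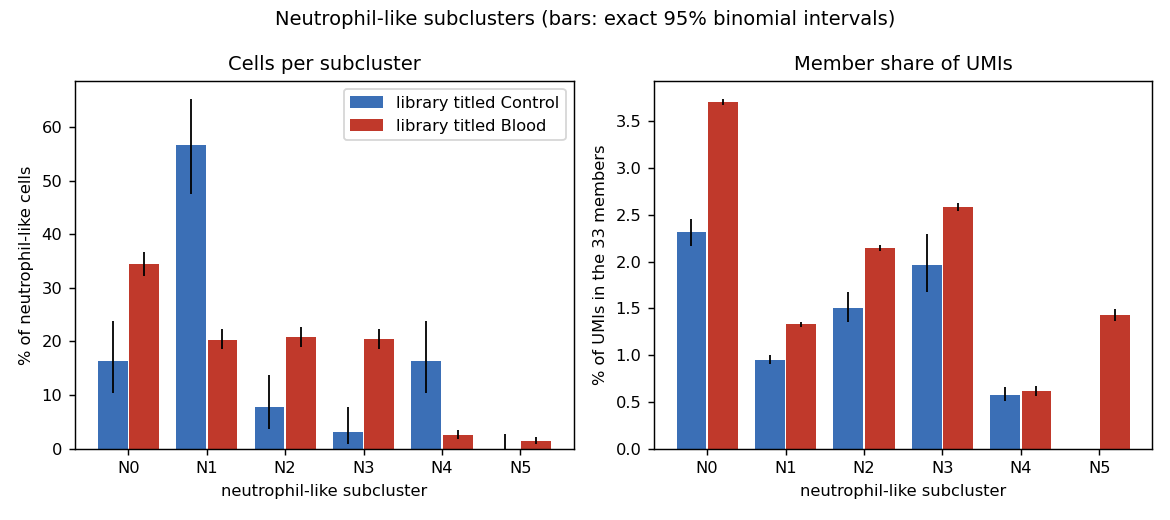
Left, the percent of neutrophil-like cells in each subcluster, and right, the percent of its UMIs in the 33 members, in the library titled Control (blue) and the library titled Blood (red), with exact 95% binomial intervals. N1 held 73 of 129 cells of the library titled Control, N0 held 610 of 1773 of the library titled Blood, and the member share ran from 0.580% in N4 to 3.70% in N0.

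Within a subcluster the difference between libraries was smaller than in the class as a whole. In N0, 18 of 31 members that passed were at least 1.5-fold higher in the library titled Blood, against 43.6% of all genes, with a median log2 ratio of 0.75 over the members and 0.30 over all genes. In N1 it was 16 of 30, against 24.5%, with medians of 0.72 and 0.08. In N4 it was 5 of 16, against 24.3%, with medians of 0.06 and 0.09. With N0, N1 and N4 at equal weight in both libraries, 16 members in place of 25 were at least 1.5-fold higher, and the median was 0.62. This weighting left out N2, N3 and N5, which had fewer than 20 cells in the library titled Control. N2 and N3 held 368 and 362 cells in the library titled Blood. Only 21 cells of N0 and 21 of N4 stood behind the values of the library titled Control.

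Single members followed the subclusters in different ways. Hilpda stood in N0 at 5314 CPM in the library titled Control and 5895 CPM in that titled Blood, with a ratio of 1.11 (0.971 to 1.27), and in N4 at 23.1 and 33.7 CPM. In N1 the same gene stood at 216 and 1106 CPM, 5.13-fold higher (3.59 to 7.61). Bnip3 stood at 380 and 1273 CPM in N0, 3.35-fold higher (2.06 to 5.89), and at 111 and 249 CPM in N1, 2.23-fold higher (1.34 to 4.0). Mif stood at 1020 and 2966 CPM in N0, 2.91-fold higher (2.15 to 4.03), and Ero1l at 1091 and 2230 CPM, 2.04-fold higher (1.53 to 2.80). Slc2a1 stood at 1020 and 781 CPM in N0, with an interval of the ratio of 0.563 to 1.07, and at 271 and 269 CPM in N1.

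The lactate exporter Slc16a3 had an order over the subclusters unlike that of the members together. In N0, where the share of the members was highest in both libraries, it stood at 190 and 527 CPM. In N4, where that share was lowest, it stood at 1408 and 1090 CPM, and in N2 at 1254 and 1223 CPM. The glucose transporter Slc2a3 was also high in N4, at 531 and 539 CPM, against 118 and 131 CPM in N1. Its relative Slc2a1 stood lower in N4 than in N1, at 162 and 112 CPM in N4. In the library titled Control, N4 rests on 21 cells and 43310 UMIs, so the order of Slc2a1 is uncertain there.

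Cell depth was taken out by thinning each cell to 1000 UMIs, which left out 5 and 211 neutrophil-like cells below that depth. A thinned neutrophil-like cell then held on average 11.4 UMIs of the 33 members in the library titled Control and 25.4 in the library titled Blood. Macrophage-like cells held 9.15 and 11.0, T cell-like cells 5.77 and 7.03, and B cell-like cells, taken as a class low in the members, 3.0 and 3.38. Bnip3 was found in 10.5% (95% interval 5.70 to 17.3) and 41.9% (39.5 to 44.4) of thinned neutrophil-like cells, and in 22.5% and 54.5% before thinning. In B cell-like cells Bnip3 was found in 0 of 35 thinned cells in the library titled Control (95% interval up to 10%) and in 3.33% in the library titled Blood, with unthinned shares of 2.70% and 14.5% at medians of 3864 and 3194 UMIs per cell. Hilpda was found in 22.6% and 66.1% of thinned neutrophil-like cells, Ero1l in 14.5% and 49.5%, and Mif in 33.9% and 70.0%. Slc16a3 was found in 47.6% and 47.8%. Unthinned, Hilpda was found in 28.7% and 71.3%, Ero1l in 27.9% and 58.8%, Mif in 48.8% and 78.7%, and Slc16a3 in 63.6% and 61.5%. Thinned B cell-like cells with a UMI of Hilpda made up 2.86% and 1.67%.

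Across cells, the median percent of a cell's UMIs in the members was 0.854 and 2.38 in neutrophil-like cells. The middle 90% of cells ran from 0.269 to 2.89 in the library titled Control and from 0.434 to 5.37 in the library titled Blood, so the libraries overlapped cell by cell. In macrophage-like cells the medians were 0.784 and 0.949 and in T cell-like cells 0.438 and 0.594. Within thinned neutrophil-like cells, those with more UMIs of the 18 glycolysis members also had more of the other 15, with a Spearman correlation across cells of 0.50 over 124 cells and 0.71 over 1562 cells. The same correlation was 0.35 and 0.42 in macrophage-like and 0.35 and 0.40 in T cell-like cells. The other 15 members averaged 3.14 and 9.78 UMIs per thinned neutrophil-like cell. They averaged 1.71 and 2.44 in macrophage-like and 1.38 and 1.75 in T cell-like cells. Low counts weaken such a correlation, so these values do not rank the classes. Cells of a library share its preparation, so these values describe the cells and carry no test.

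**Figure D3:**
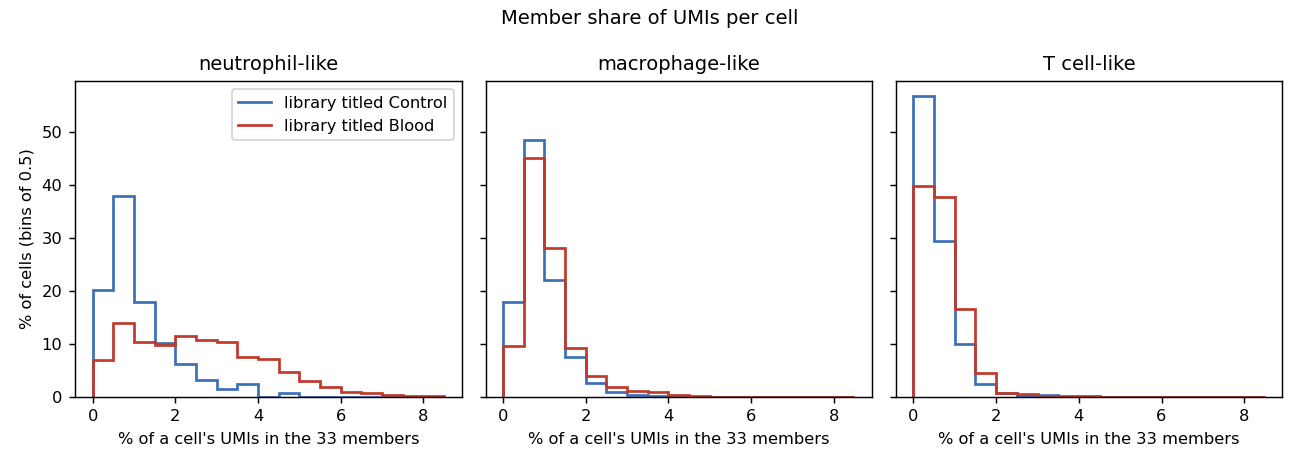
Distribution over cells of the percent of a cell's UMIs in the 33 members, in bins of 0.5, for neutrophil-like, macrophage-like and T cell-like cells, with the library titled Control in blue and the library titled Blood in red, as percent of the class's cells. The medians of the libraries lie at 0.854 and 2.38 in neutrophil-like cells, 0.784 and 0.949 in macrophage-like cells and 0.438 and 0.594 in T cell-like cells.

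Beside these values, other gene lists were read in the same neutrophil-like cells. The dissociation and immediate early list summed to 29602 CPM in the library titled Control and 31878 CPM in the library titled Blood, with 3 of 16 genes at least 1.5-fold higher, the heat shock genes Hspa1a, Hspa1b and Hsp90aa1, a share near the 20.6% of all genes. Of 10 genes of the unfolded protein response, 7 were at least 1.5-fold higher, against the same 20.6%, and the list's median log2 ratio was 1.11. The tumour-type neutrophil list summed to 16732 and 24287 CPM, and the blood-type list to 4882 and 3600 CPM. The 10 macrophage markers summed to 1255 and 1527 CPM. The part of heat shock, of the unfolded protein response and of neutrophil type in the result was not tested. The median log2 ratio over the members was 1.38 without the neutrophil-like cells that had any C1q UMI, and 1.35 without N5. Leaving out cells with a C1q UMI kept 56 of 129 cells in the library titled Control and 949 of 1773 in the library titled Blood.

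The other genes of the pathway were read from 4 lists of 62 genes. Of 19 further glycolysis isozymes and regulators, 5 passed in neutrophil-like cells, 1 was at least 1.5-fold higher and 1 lower, shares near the 20.6% and 14.3% of all genes. The higher was Aldoc, an aldolase isozyme, with 0 UMIs in the library titled Control and 17.5 CPM in the library titled Blood, so it passed only through the latter and had to differ. The lower was the glucose transporter Slc2a6, at 84.7 and 39.9 CPM. Pdk3, a kinase of pyruvate dehydrogenase, stood at 11.5 and 13.7 CPM, and Pfkfb4, a relative of Pfkfb3, at 77.0 and 69.5 CPM.

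Of 8 genes of glycogen making and breakdown, 7 passed and 4 were at least 1.5-fold higher, against 20.6% of all genes. Gys1, the glycogen synthase, stood at 26.9 and 89.2 CPM, from 7 and 286 UMIs, and Pgm2, a phosphoglucomutase, at 19.2 and 52.7 CPM. Pgm1, of the same activity, stood at 26.9 and 51.1 CPM, with an interval of the ratio that includes 1.

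Of 9 further genes of oxygen sensing, 7 passed, 0 were at least 1.5-fold higher and 1 was lower, against 20.6% and 14.3% of all genes, so the share lower was that of all genes. Cul2, a scaffold of the ligase that removes HIF alpha subunits, was the lower, at 15.4 and 4.68 CPM from 4 and 15 UMIs, with an interval that includes 1, and it passed the filter only through the library titled Control. Cited2, which competes with HIF-1 alpha for a coactivator, stood at 397 and 502 CPM. The hydroxylase Egln2 stood at 19.2 and 30.5 CPM and the ligase subunit Vhl at 26.9 and 34.3 CPM.

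Of 26 further HIF targets, 16 passed, 11 were at least 1.5-fold higher, against 20.6% of all genes, and 1 was lower, against 14.3%. Fam162a, a mitochondrial protein, stood at 104 and 498 CPM, 4.79-fold higher (3.28 to 7.29), and Plin2, which coats lipid droplets, at 620 and 2155 CPM, 3.48-fold higher (2.97 to 4.09). Higd1a, a mitochondrial protein of the inner membrane, stood at 131 and 352 CPM, and Ak4, an adenylate kinase, at 3.85 and 17.8 CPM from 1 and 57 UMIs. Of the 11, Ak4, Insig2 and Ankzf1 passed the filter only through the library titled Blood and had to differ. Cxcr4, the chemokine receptor that holds neutrophils in the bone marrow and was the lower gene, stood at 1001 and 578 CPM, a ratio of 0.577 (0.507 to 0.660). Its direction is opposite to that of the other 11.

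In macrophage-like cells the same genes differed less between libraries than in neutrophil-like cells. The members took 0.906% of UMIs in the library titled Control and 1.03% in the library titled Blood. Of 29 that passed, 4 were at least 1.5-fold higher, against 0.527% of the 7777 genes that passed there, and 0 were lower, against 0.849%. The median log2 ratio was 0.24 over the members and 0.01 over all genes, and 28 of 29 lay above 0. The ratio's interval lay wholly above 1 for 27 of 29, but with sums of 84286070 and 81729589 UMIs it did so for 31.7% of all genes. It lay wholly below 1 for 1 member, Pfkfb3, against 27.4%.

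The 4 genes at least 1.5-fold higher in macrophage-like cells were HIF targets outside glycolysis. The hydroxylase Egln3 stood at 10.5 and 23.6 CPM, 2.26-fold higher (2.08 to 2.45), and Ero1l at 61.4 and 116 CPM, 1.89-fold higher (1.83 to 1.96). Bnip3 stood at 80.6 and 140 CPM, 1.74-fold higher (1.69 to 1.79), and Ndrg1 at 25 and 42.5 CPM, 1.70-fold higher (1.61 to 1.79). Slc16a3, unlike in neutrophil-like cells, stood higher in the library titled Blood, at 119 and 168 CPM, 1.42-fold (1.38 to 1.45). The 5 lowest ratios belonged to Pfkfb3 at 33.2 and 30.5 CPM, Eno1 at 367 and 369 CPM, Gapdh at 2138 and 2183 CPM, Hk2 at 109 and 114 CPM and Hk1 at 31.5 and 34.7 CPM. Slc2a3, Adm, P4ha2 and Car9 did not pass. The count of 4 depends on how cells were grouped, and it was 2 with the macrophage-like clusters at equal weight and 1 where the libraries were clustered apart.

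The macrophage-like clusters differed in the members as well. Cluster 3, with Mmp12, Arg1 and the haem oxygenase gene Hmox1 among its leading genes, had the highest share, 1.44% and 1.48%, and it held 579 cells in the library titled Control and 1315 in the library titled Blood. In that cluster Egln3 stood at 57.7 and 81.4 CPM, against 4.61 and 6.96 CPM in cluster 0, the cluster led by Ccl8 and Fcrls. Bnip3 stood at 244 and 299 CPM in cluster 3 and at 64.0 and 106 CPM in cluster 0. Ero1l stood at 196 and 321 CPM in cluster 3 and at 42.4 and 63.7 CPM in cluster 0. Bnip3 and Ero1l were thus higher in the library titled Blood in both of these clusters. Cluster 3 also held more of that library's cells. In cluster 11, with Retnla among its leading genes and 284 and 456 cells, the member share was 0.844% and 1.14%. Egln3 stood there at 16.1 and 52.4 CPM and Bnip3 at 119 and 249 CPM. A small cluster of 5 and 33 cells had the lower share in the library titled Blood, at 0.632% and 0.575%.

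T cell-like cells had the lowest member share of the 3 classes, 0.643% in the library titled Control and 0.757% in the library titled Blood. Of 29 members that passed, 1 was at least 1.5-fold higher, against 1.05% of all genes, and 0 were lower, against 1.09%, with a median log2 ratio of 0.23 over the members and 0.04 over all genes. The gene was Bnip3, at 19.4 and 32.3 CPM, 1.66-fold higher (1.34 to 2.07). Ero1l followed at 37.5 and 57.5 CPM, Ankrd37 at 9.94 and 16.1 CPM, Egln1 at 76.9 and 102 CPM and Pgk1 at 283 and 368 CPM. The lowest were Pfkl at 50.9 and 50.1 CPM, Ndrg1 at 17.9 and 18.5 CPM, Kdm3a at 28.4 and 30.1 CPM, Bnip3l at 138 and 146 CPM and Hk2 at 28.7 and 30.6 CPM. The ratio's interval lay wholly above 1 for 21 of 29, against 17.3% of all genes, and wholly below 1 for 0, against 9.8%.

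Clusters of T cell-like cells differed more than libraries. The cluster with Klra7 and Tcf7 among its leading genes had a member share of 0.325% and 0.314%, and it held 454 cells in the library titled Control and 277 in the library titled Blood. The cluster led by Foxp3, Il2ra and Ctla4, genes of regulatory T cells, had 1.05% and 1.02%. The remaining clusters had the higher share in the library titled Blood. It was 0.765% and 0.902% in that led by Ccl1 and Cd4, and 0.729% and 0.786% in that led by Cd8b1 and Cd8a. Without the Klra7 cluster the median over the members was 0.04 and 0 members were at least 1.5-fold higher.

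In the other classes the median log2 ratio over the members lay between 0.05 in NK cell-like and 0.17 in monocyte-like cells. Single members differed more. Monocyte-like cells had 0 of 29 members at least 1.5-fold higher, against 0.814% of all genes, with Ero1l at 102 and 146 CPM and Ankrd37 at 35.7 and 52.1 CPM the highest ratios and Kdm3a at 29.3 and 23.4 CPM and Pfkfb3 at 55.2 and 45.1 CPM the lowest. That count of 0 ran up to 7 over 15 other settings and was above 0 in 5 of them. NK cell-like cells had 5 of 29 higher, against 2.61%, and 1 lower, against 1.91%. Their highest ratios were those of Egln3, at 2.51 and 10.6 CPM from 6 and 23 UMIs, and Bnip3, at 14.6 and 27.2 CPM, and their lowest those of Pfkfb3, at 11.7 and 6.00 CPM, and Hilpda, at 146 and 106 CPM. Ero1l, Hk2 and Slc2a3 were the other 3 higher members there. Egln3 and Hk2 passed the filter only through the library titled Blood and Pfkfb3, the member called lower, only through the library titled Control, which favoured these calls. Conventional DC-like cells had 4 of 29 higher, against 1.39%, with Egln3 at 3.89 and 11.2 CPM and Hilpda at 79.4 and 137 CPM the highest and Pfkfb3 at 24.3 and 18.9 CPM and Slc2a1 at 82.0 and 73.3 CPM the lowest. Bnip3 and Ero1l were the other two higher members there, and Egln3 passed only through the library titled Blood. Mesenchymal-like cells had 2 of 30 higher, against 1.21%, Bnip3 at 51.0 and 84.1 CPM and Slc16a3 at 105 and 168 CPM, with P4ha2 at 44.3 and 36.0 CPM and Hif1a at 124 and 114 CPM the lowest. The mesenchymal-like class held 102 and 54 cells. In all 7 classes compared, the higher level of Bnip3 was that of the library titled Blood.

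**Figure D4:**
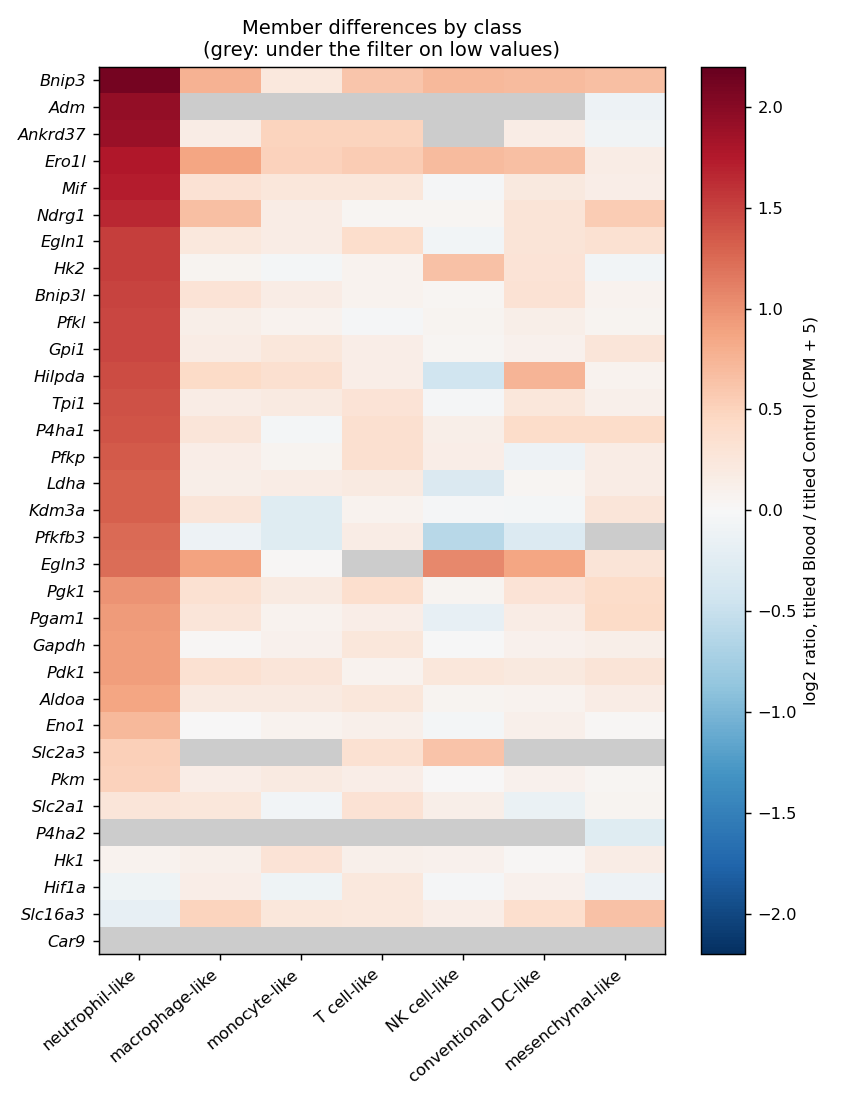
Log2 ratio of CPM plus 5, titled Blood over titled Control, for the 33 members (rows) in 7 classes (columns), red where the library titled Blood is higher, blue where it is lower and grey where a member did not pass the filter on low values. The neutrophil-like column is red for 25 members past 1.5-fold, and in the other columns Bnip3, Ero1l and Egln3 are the rows with the most colour.

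Set against macrophage-like cells within a library, neutrophil-like cells had a higher level of many members even where the library titled Control is read alone. Of 30 members that passed there, 17 were at least 1.5-fold higher in neutrophil-like cells, against 22.3% of all genes, and 2 were lower, against 51.9%, with a median log2 ratio of 0.81 over the members and -0.66 over all genes. In the library titled Blood 28 of 31 were higher, against 21.7%, and 0 lower, against 49.3%, with medians of 1.85 and -0.56. Slc2a3 in both libraries, and Adm in the library titled Blood, passed the filter only through neutrophil-like cells, which favours a call of higher there. The classes came from clustering and these ratios are descriptions. With the classes scaled by the median of ratios over genes in place of total UMIs, 7 members in place of 2 were lower in neutrophil-like cells of the library titled Control, and the median was 0.37.

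The 6 members with the highest mean log2 ratio over the libraries held no enzyme of lower glycolysis. In the library titled Control, Slc2a3, the high-affinity glucose transporter, stood at 254 CPM in neutrophil-like and 1.07 CPM in macrophage-like cells, and in the library titled Blood at 368 and 2.45 CPM. Egln3 stood at 200 and 10.5 CPM, then 475 and 23.6 CPM. Hilpda stood at 1147 and 125 CPM, then 3127 and 168 CPM. Ero1l stood at 350 and 61.4 CPM, then 1197 and 116 CPM. Slc16a3 stood at 905 and 119 CPM, then 798 and 168 CPM, and Kdm3a at 73.1 and 15.9 CPM, then 190 and 20.3 CPM. For these 6 genes the neutrophil-like level was above the macrophage-like level in both libraries, by log2 ratios from 1.90 to 5.65.

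The 6 members with the lowest mean log2 ratio against macrophage-like cells lay on different sides of the macrophage-like level in the libraries. In the library titled Control, Gapdh stood at 1263 CPM in neutrophil-like and 2138 CPM in macrophage-like cells, and in the library titled Blood at 2392 and 2183 CPM. Gpi1 stood at 285 and 443 CPM, then 799 and 496 CPM. Egln1, the main oxygen sensor of the family, stood at 42.3 and 62.7 CPM, then 132 and 74.9 CPM. Pgk1 stood at 439 and 483 CPM, then 873 and 608 CPM, Tpi1 at 350 and 468 CPM, then 934 and 527 CPM, and Mif at 608 and 818 CPM, then 2031 and 1024 CPM. All 6 had the lower level in neutrophil-like cells when the library titled Control was read and the higher level when the library titled Blood was read.

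Against T cell-like cells, 20 of 30 members were at least 1.5-fold higher in neutrophil-like cells of the library titled Control, against 21.3% of all genes, and 2 were lower, against 52.7%. In the library titled Blood it was 28 of 31, against 22.5%, and 1 lower, against 50.2%. The median log2 ratios were 1.11 and 1.98 over the members and -0.68 and -0.59 over all genes. Some members passed the filter only through neutrophil-like cells, which favours a call of higher there. They were Egln3 in both libraries, Ankrd37 in the library titled Control and Adm in the library titled Blood. In order of the mean log2 ratio over the libraries, Egln3 came first, at 200 CPM against 6.73 CPM and at 475 CPM against 9.69 CPM. Hilpda followed at 1147 against 112 CPM and 3127 against 124 CPM, Slc16a3 at 905 against 49.4 CPM and 798 against 58.7 CPM, and Ero1l at 350 against 37.5 CPM and 1197 against 57.5 CPM. Bnip3 stood at 169 against 19.4 CPM and 743 against 32.3 CPM, and Slc2a1 at 397 against 34.4 CPM and 477 against 44.1 CPM.

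Hif1a was the member that T cell-like cells had more of in both libraries. Its levels were 312 CPM in neutrophil-like and 484 CPM in T cell-like cells for the library titled Control, and 291 and 570 CPM for the library titled Blood. Egln1 stood at 42.3 against 76.9 CPM, then 132 against 102 CPM. Gapdh stood at 1263 against 1339 CPM, then 2392 against 1598 CPM, and Gpi1 at 285 against 332 CPM, then 799 against 369 CPM. Ldha stood at 628 against 611 CPM, then 1578 against 698 CPM, and Aldoa at 882 against 648 CPM, then 1612 against 775 CPM.

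**Figure D5:**
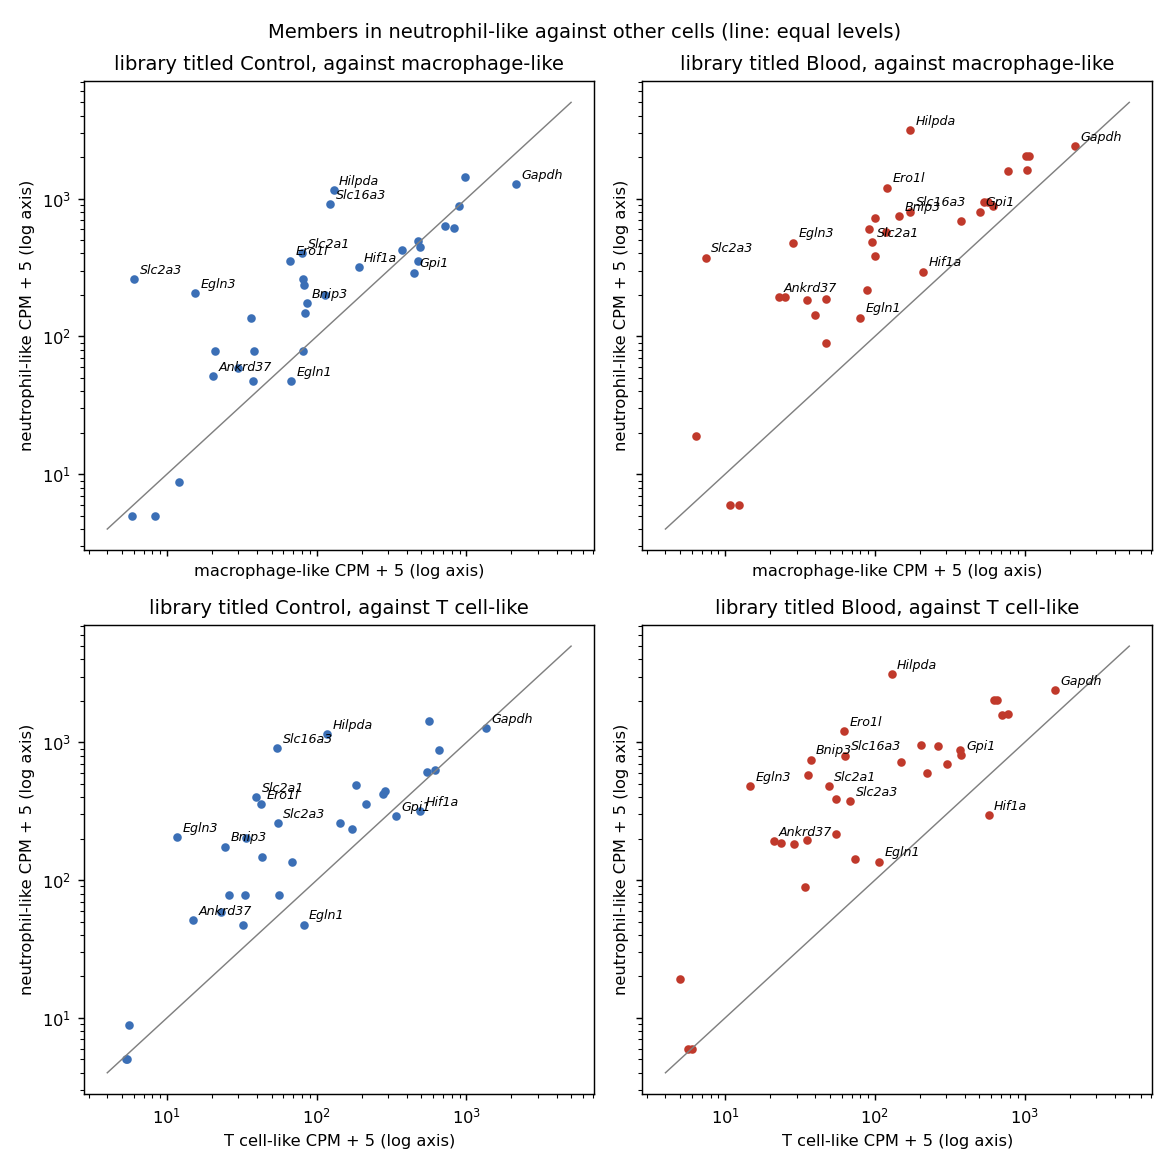
Each point is a member, with its level in neutrophil-like cells (vertical) against that in macrophage-like cells (top) or T cell-like cells (bottom), as CPM plus 5 on log axes, for the library titled Control (left, blue) and the library titled Blood (right, red). Points above the line are higher in neutrophil-like cells, with Slc2a3, Egln3 and Hilpda farthest above it against macrophage-like cells, Egln3 farthest above it against T cell-like cells, and Hif1a below it against T cell-like cells.

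Over 9 named classes, those of 50 or more cells in each library, neutrophil-like cells had the highest level of 14 of 32 members that passed in the library titled Control, against 14.6% of all genes, and of 26 of 32 in the library titled Blood, against 13.8%. Macrophage-like cells had the highest level of 0 of 32 in each library, against 5.33% and 5.51% of all genes, and T cell-like cells of 0 and 1, against 11.5% and 11.7%. For neutrophil-like cells, the interval of the level lay apart from that of the second class for 10 of the 14 and 24 of the 26. Unnamed clusters, with member shares of 1.25% and 1.29% of UMIs, were left out of this order. The order was not the same for all members. Pfkfb3 and Ndrg1 were highest in migratory DC-like cells of both libraries, at 142 and 188 CPM and at 115 and 183 CPM, and in the library titled Blood their neutrophil-like levels of 180 and 182 CPM lay within counting error of these. Hif1a was highest in monocyte-like cells of the library titled Control, at 525 CPM, and in T cell-like cells of that titled Blood, at 570 CPM. Adm and P4ha2 were highest in mesenchymal-like cells of both libraries, at 19.0 and 17.3 CPM and at 44.3 and 36.0 CPM. Car9 was highest in macrophage-like cells at 7.11 and 7.39 CPM and did not pass. Aldoa in the library titled Control was highest in osteoclast-like cells, at 1406 CPM, and Mif in mesenchymal-like cells, at 1425 CPM, while in the library titled Blood both were highest in neutrophil-like cells.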

How the data were processed

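Droplet single-cell RNA sequencing (10x Genomics, single cell 3' v3) gave 1 library for each of 2 groups, named by title. The deposited values are whole-number UMI counts per gene and barcode, which the authors made with Cell Ranger 3.1.0 on build mm10, per the submitters' processing notes. The total was 115272096 UMIs over 9475 barcodes in the library titled Control and 115066023 over 12057 in the library titled Blood. No normalization had been applied to the deposited counts.

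Barcodes under 300 genes or 500 UMIs, or over 20% mitochondrial UMIs, were dropped, which left 8985 and 11617. Scrublet in scanpy 1.11.5 called 162 and 276 of these as doublets (1.80% and 2.38%, where loading would give 7.19% and 9.29%), which were removed, so undetected doublets remain. Both libraries were clustered together (2000 variable genes, 30 components, 15 neighbours, Leiden resolution 1, leidenalg 0.10.2, igraph 0.11.9), with the members and the other pathway genes left out. Clusters were named from 21 marker lists, and the limits for naming were set after the data had been seen. "X-like" marks a rebuilt name. Neutrophil-like cells were clustered again at resolution 0.5.

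UMIs were summed per class and library and given as CPM, with exact Poisson intervals for levels and exact conditional binomial intervals for ratios and shares (95%, scipy 1.17.1, numpy 2.4.6, pandas 2.3.3). PCR copies are collapsed by the UMI, and intervals and floors of 3 counts cover counting error only. Log2 ratios used a pseudocount of 5 CPM and a fold of 1.5. The filter was at least 10 CPM in either sum and 10 counts in both together. No p-value was computed, since each group is 1 library. Cells were thinned to 1000 UMIs for shares of cells. Aldoa has 2 gene identifiers, which were summed. The functions for ratios, intervals and fold counts were tested on simulated counts. Promoters came from RefSeq GRCm38.p6, and Ero1l was matched by synonym.

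The members and all lists were chosen with earlier results of these data known. Named genes are every member past the filter in neutrophil-like cells, the 5 highest and 5 lowest by log2 ratio in macrophage-like and T cell-like cells, the 2 highest and 2 lowest in other classes, the 6 highest and 6 lowest between classes, up to 4 genes of each other list, and genes that a small count needs. A gene that this rule would name in the glycogen list is not reported here. Alternatives were other scalings, pseudocounts, filters, clusterings, a gate on marker UMIs, equal weights of clusters, and classes without cells in doubt. Classes under 100 cells in either library, other than mesenchymal-like cells, were not compared between libraries.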

Additional observations from a re-analysis of the deposited data

Results flagged for a closer look

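Pfkfb3, the kinase and phosphatase that sets the level of the activator of phosphofructokinase, lay on opposite sides of 0 in different classes. Its log2 ratio of the library titled Blood over the library titled Control was 1.24 in neutrophil-like cells, from 19 and 576 UMIs in the libraries titled Control and Blood. It was -0.60 in NK cell-like cells, from 28 and 13 UMIs, where the interval of the ratio, 0.244 to 1.02, includes 1. The difference between the classes was not tested.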

How the results depend on the processing

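The median log2 ratio of the members in neutrophil-like cells lay between 0.62 and 1.42 over 17 alternatives and the count at least 1.5-fold higher between 16 and 26. The count was 16 with subclusters N0, N1 and N4 at equal weight, an alternative chosen after seeing the data. In macrophage-like cells the count of 4 became 2 with a filter of 50 CPM and 50 counts, with Leiden resolution 2, with the pathway genes kept for clustering and with clusters at equal weight, and 1 with each library clustered on its own or with doublets kept. In T cell-like cells the count of 1 became 2 with the mean of each cell's CPM, with doublets kept or with at least 1000 UMIs per cell, 3 with a pseudocount of 1 or a gate on raw marker UMIs, and 0 with the filter of 50 CPM or without the Klra7 cluster, the last chosen after seeing the data. The NK cell-like median of 0.05 became -0.012 with the filter of 50 CPM, and the monocyte-like count ran from 0 to 7. Against macrophage-like cells, the count of members higher in neutrophil-like cells ran from 12 to 18 in the library titled Control and from 27 to 30 in the library titled Blood. The causes were not tested. Some alternatives gave no conventional DC-like class and no value there. The neutrophil-like values of the library titled Control rest on 129 cells and 259745 UMIs, which limits their precision. No paired analysis was possible because each group is 1 library.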
